A study of Danio rerio with 10 samples.

Results

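The genes described here make, destroy and read retinoic acid in the zebrafish embryo. They are the 10 genes of the deposited count table named *aldh1a2*, *aldh1a3*, *cyp26a1*, *cyp26b1*, *cyp26c1*, *dhrs3a*, *raraa*, *rarab*, *rarga* and *rargb*. They were taken by name, with no threshold on a measured value, and all 10 were found among 32520 genes. Retinoic acid is made from vitamin A (retinol) by oxidation, first to retinaldehyde and then to the acid. Aldh1a enzymes carry out the last step and Cyp26 enzymes oxidise retinoic acid further, so that it is cleared. Retinoic acid acts by binding retinoic acid receptors, which pair with retinoid X receptors on DNA. In the fish embryo it is needed for the pectoral fin field to form and for the normal domains of anterior *hox* genes.

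RNA-seq was run on EGFP-positive cells sorted at 48 hours post fertilization (hpf) from *Tg(Mmu:Prx1-EGFP)* embryos. The libraries were 2 from *prdm1a*-/- embryos (m805 allele on both chromosomes) and 2 from WT embryos, numbered replicate 1 and 2 in each genotype. *prdm1a* encodes a zinc finger transcription factor of the fin bud and neural plate border. Both genotypes carried the transgene, in which a mouse *Prx1* enhancer drives EGFP. It also labels the pharyngeal arches and the dorsal head, which were dissected away before sorting, though some of this tissue could have remained. Mutant embryos were recognised by their pigment pattern, and every library came from pooled embryos, so each spread between replicates is a spread between pools. The study counted heterozygotes with WT in its measurements, and whether this held for the sorted pools is not stated. In such bulk samples, fewer cells of a type and less RNA per cell cannot be told apart.

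The library totals ranged from 20303621 to 26798799 counts. The 6 fin mesenchyme markers (*prrx1a*, *prrx1b*, *tbx5a*, *tbx15*, *hand2*, *fgf10a*) were detected in every library, with a summed level of 843 and 491 CPM in *prdm1a*-/- replicates 1 and 2, against 908 and 709 CPM in WT replicates 1 and 2. CPM are counts scaled to a common library size of 1000000 by the TMM method, whose factors were 0.969 to 1.02. The *prdm1a* transcript itself had 123 and 302 CPM in *prdm1a*-/- libraries, against 50.0 and 232 CPM in WT libraries. The m805 allele does not remove this transcript, so its level checks no label. Summed retina markers (*rx1*, *rx2*, *six6b*, *crx*) set *prdm1a*-/- replicate 1 apart, with 14.4 CPM against 0.616 to 2.31 CPM in the other 3 libraries. *crx* went the other way, with 0 counts in both replicate 1 libraries and 36 counts in WT replicate 2. *rx2* had 0 counts in *prdm1a*-/- replicate 2. In *prdm1a*-/- replicate 1, *rx1* alone gave 9.01 CPM of the sum. A fit without that library has genotype as its only term and called 0 of all genes tested, so it cannot show whether a call depends on it.

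In these fin cells, none of the 10 retinoic acid genes was called different between *prdm1a*-/- and WT libraries after adjustment over all genes tested. The genotypes were compared within replicate number with edgeR's quasi-likelihood test, in which the replicate number is a block. A gene was called at a Benjamini-Hochberg adjusted p under 0.05 over the 20007 genes with enough counts, which included all 10. By this test 0 of 10 were called, beside 1.01% of all genes tested, so among 10 genes a count of 0 is near that share. At an unadjusted p under 0.05 there was 1 of 10, *rarga*, beside 12.4% of all genes. DESeq2 and limma-voom with the same block also called 0 of 10. The genotypes did not overlap for 1 of 10, again *rarga*, while 26.2% of all genes had groups that did not overlap. The median absolute log2 fold change was 0.11 over the 10 genes and 0.25 over all genes tested. This comparison also reflects counting depth, since low counts scatter more. A p above the threshold does not show that values are equal, so the 95% interval of each log2 fold change (*prdm1a*-/- over WT) is given below.

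**Figure D1:**
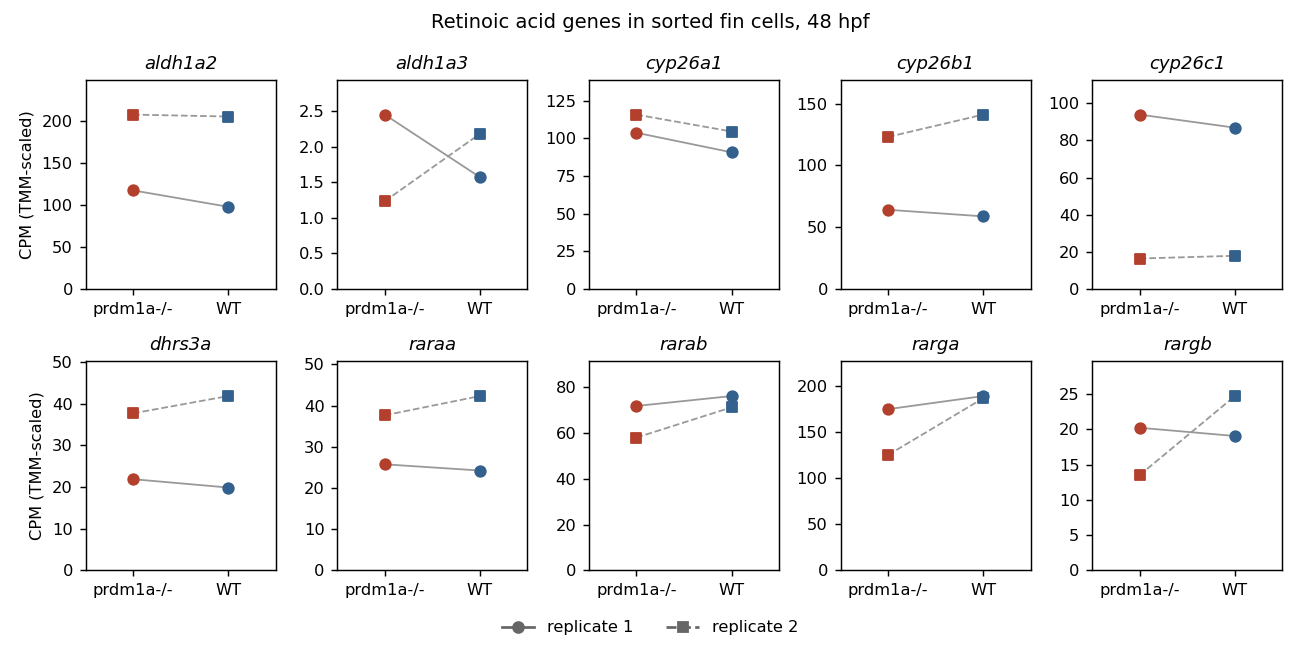
Each panel shows 1 gene, with CPM on a linear axis that starts at 0, *prdm1a*-/- libraries on the left and WT libraries on the right. Circles joined by a solid line are replicate 1 and squares joined by a dashed line are replicate 2. For *cyp26c1* the 2 replicate 1 libraries sit at 93.9 and 86.9 CPM and the 2 replicate 2 libraries at 16.4 and 17.9 CPM, and *rarga* is the only gene with both *prdm1a*-/- points below both WT points.

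*aldh1a2* (ENSDARG00000053493) encodes the main retinoic acid-making enzyme of the trunk mesoderm. It had 2401 and 5401 counts in *prdm1a*-/- replicates 1 and 2, against 2247 and 4625 counts in WT replicates 1 and 2. In CPM these were 118 and 208 in *prdm1a*-/- libraries, against 98.0 and 206 in WT libraries. The genotypes overlapped fully, with both replicate 1 libraries low and both replicate 2 libraries high. The log2 fold change was 0.14 ± 0.14 (SE), with an interval from -0.17 to 0.44 and an adjusted p of 0.75 by edgeR's quasi-likelihood test. Taken within a replicate number, *prdm1a*-/- over WT gave log2 ratios of 0.26 in replicate 1 and 0.02 in replicate 2.

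*aldh1a3*, which encodes a second enzyme of this step and is best known from the eye and nasal region, was close to the limit of what these libraries resolve. It had 50 and 32 counts in *prdm1a*-/- libraries, against 36 and 49 counts in WT libraries, or 2.45 and 1.23 CPM against 1.57 and 2.18 CPM. The ratio changed sides between the replicates, with a log2 ratio of 0.64 in replicate 1 and -0.81 in replicate 2. The log2 fold change of -0.09 had an interval from -1.43 to 1.25, so neither a fold of 2.39 up nor one of 0.372 was outside it. The 4 libraries had the same order in *aldh1a3* as in the summed retina markers, highest in *prdm1a*-/- replicate 1 and lowest in *prdm1a*-/- replicate 2. Between the WT libraries this order rested on *crx*, which gave 1.60 of the 2.31 CPM in WT replicate 2. *crx* was at 0 in *prdm1a*-/- replicate 1, and *rx1* had the reverse WT order, with 0.698 and 0.0889 CPM in WT replicates 1 and 2. The part of retina RNA in the *aldh1a3* values was not tested. When *prdm1a*-/- replicate 1 was left out and genotype was the only term, the estimate was -0.60 on the log2 scale. That fit leaves the replicate numbers unbalanced between the genotypes.

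The 3 *cyp26* genes encode cytochrome P450 enzymes that clear retinoic acid. *cyp26a1*, which is known to be induced by retinoic acid itself, had 2117 and 3005 counts in *prdm1a*-/- libraries, against 2079 and 2350 counts in WT libraries. These were 104 and 116 CPM against 90.6 and 104 CPM. The mutant library was above its WT counterpart in both replicates, by log2 ratios of 0.19 and 0.15, although the groups overlapped. The log2 fold change of 0.17 ± 0.13 (SE) had an interval from -0.12 to 0.46 and did not pass (adjusted p = 0.663, edgeR).

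*cyp26b1*, which in the mouse limb bud protects the distal mesenchyme from retinoic acid, had 1309 and 3197 counts in *prdm1a*-/- libraries, against 1348 and 3175 counts in WT libraries. In CPM these were 64.1 and 123 against 58.8 and 141. Again the libraries fell apart by replicate number and not by genotype. The genotype log2 fold change was -0.04, with an interval from -0.35 to 0.28.

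*cyp26c1* encodes the third enzyme, best known from the hindbrain and head mesenchyme. It had 1918 and 426 counts in *prdm1a*-/- libraries, against 1992 and 402 counts in WT libraries, which is 93.9 and 16.4 CPM against 86.9 and 17.9 CPM. Its replicate 2 libraries were low in both genotypes, opposite to *cyp26b1*. Its genotype log2 fold change was 0.00032, the estimate nearest to 0 of the 10 genes, with an interval from -0.34 to 0.34, or folds from 0.789 to 1.27.

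*dhrs3a* encodes a reductase that returns retinaldehyde to retinol and so draws substrate away from Aldh1a enzymes. It had 447 and 979 counts in *prdm1a*-/- libraries, against 456 and 941 counts in WT libraries, or 21.9 and 37.7 CPM against 19.9 and 41.8 CPM. The genotypes overlapped, and the log2 fold change of -0.0097 had an interval from -0.39 to 0.37. Over the 4 libraries *dhrs3a* followed *aldh1a2*. The ratio of *aldh1a2* to *dhrs3a* counts was 5.37 and 5.52 in *prdm1a*-/- libraries, against 4.93 and 4.91 in WT libraries, while each gene alone differed between the replicate numbers. Measured as the Euclidean distance of log2 CPM centred over the 4 libraries, this was the closest pair among the 10 genes, at 0.148, and *cyp26b1* with *dhrs3a* followed at 0.178.

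The 3 lowest genotype estimates of the 10 genes were those of receptors. All 4 retinoic acid receptor genes had a log2 fold change below 0, and none was called. Over all genes tested, 9856 of 20007 estimates were below 0. Below WT in both replicates were 2 of the 4 receptor genes, beside 5951 of 20007 genes tested. *raraa* and *rarab* encode receptors of the alpha class. *raraa* had 526 and 978 counts in *prdm1a*-/- libraries, against 556 and 952 counts in WT libraries, or 25.8 and 37.6 CPM against 24.2 and 42.3 CPM. Its log2 fold change was -0.04, with an interval from -0.41 to 0.32, and its log2 ratio was 0.09 in replicate 1 and -0.17 in replicate 2. *rarab* had 1464 and 1504 counts in *prdm1a*-/- libraries, against 1743 and 1599 counts in WT libraries. In CPM these were 71.7 and 57.9 against 76.0 and 71.1. The groups overlapped narrowly, at 71.7 CPM in *prdm1a*-/- replicate 1 and 71.1 CPM in WT replicate 2. The log2 fold change of -0.19 had an interval from -0.50 to 0.12 (adjusted p = 0.647, edgeR).

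*rarga* and *rargb* encode receptors of the gamma class, the class that skeletal and limb mesenchyme of vertebrate embryos is known to express. *rarga* had 3573 and 3253 counts in *prdm1a*-/- libraries, against 4338 and 4202 counts in WT libraries. In CPM these were 175 and 125 in *prdm1a*-/- libraries, against 189 and 187 in WT libraries, so both mutant libraries lay below both WT libraries. The mean was 150 ± 35.1 CPM in *prdm1a*-/- and 188 ± 1.66 CPM in WT (SD, n = 2 each). The log2 ratio was -0.11 in replicate 1 and -0.58 in replicate 2, so most of the difference came from *prdm1a*-/- replicate 2. The fitted log2 fold change of -0.34 ± 0.15 (SE), a fold of 0.787, had an interval from -0.68 to -0.01. Its unadjusted p was 0.0448 and its adjusted p 0.387 by edgeR's quasi-likelihood test. Among the fits that kept the block, its adjusted p was lowest with limma-voom (0.257) and highest with DESeq2 (0.904). Leaving out *prdm1a*-/- replicate 2, with genotype as the only term, gave an estimate of -0.11 on the log2 scale. In that fit, too, the replicate numbers are unbalanced between the genotypes.

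*rargb* had 413 and 351 counts in *prdm1a*-/- libraries, against 437 and 556 counts in WT libraries, or 20.2 and 13.5 CPM against 19.1 and 24.7 CPM. Here the groups overlapped, with a log2 ratio of 0.09 in replicate 1 and -0.87 in replicate 2. The log2 fold change of -0.39 ± 0.24 (SE) was the lowest of the 10 genes and had an interval from -0.93 to 0.15 (adjusted p = 0.566, edgeR). The genes whose centred levels lay nearest to those of *rarga* over the 4 libraries were *atp6v1b2* (distance 0.0211), *TADA1* (0.0366) and *olig2* (0.0372). With only 4 libraries such likeness is a description.

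Several retinoic acid genes did differ between the replicate numbers. In the same fit, the difference of replicate 2 over replicate 1 was called for 5 of 10 genes, beside 24.7% of all genes tested, and each of the 5 was called in 6 of 6 fits with the block. *cyp26c1* was lower in replicate 2, by a log2 fold change of -2.40 (a fold of 0.19). *cyp26b1* was 2.15-fold higher in replicate 2, *aldh1a2* 1.93-fold, *dhrs3a* 1.90-fold and *raraa* 1.60-fold. The directions were the same in both genotypes. For *cyp26c1* the log2 ratio of replicate 2 over replicate 1 was -2.52 among *prdm1a*-/- libraries and -2.28 among WT libraries. For *cyp26b1* it was 0.94 among *prdm1a*-/- libraries and 1.26 among WT libraries. The remaining 5 genes were not called for this term. Its estimate was larger than the genotype estimate for 8 of 10 genes, beside 67.3% of all genes, and the median absolute estimate was 0.47 over the 10 genes and 0.48 over all genes. The size of these differences was thus near that of genes at large.

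**Figure D2:**
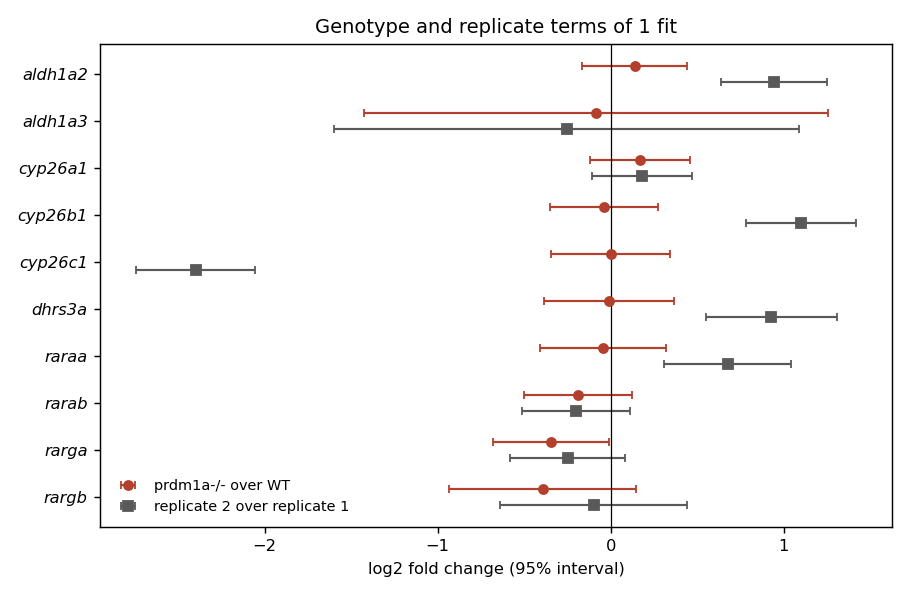
Points are log2 fold changes from 1 edgeR fit, with bars for the 95% interval. Red circles are *prdm1a*-/- over WT and grey squares are replicate 2 over replicate 1. The genotype points lie between -0.39 and 0.17, whereas the replicate point of *cyp26c1* lies at -2.40 and that of *aldh1a2* at 0.95.

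The clearing enzymes also differed relative to each other by replicate number. The ratio of *cyp26b1* to *cyp26c1* counts was 0.682 and 7.50 in *prdm1a*-/- replicates 1 and 2, against 0.677 and 7.90 in WT replicates 1 and 2. It differed 11.0-fold between the *prdm1a*-/- libraries and 11.7-fold between the WT libraries, but only 1.01-fold and 0.95-fold between the genotypes within a replicate number. Gene length cancels in these changes, though not in the ratios themselves. The ratio of *raraa* to *rarab* behaved alike, with 0.359 and 0.650 in *prdm1a*-/- libraries, against 0.319 and 0.595 in WT libraries. Summed markers of some other tissues differed by replicate number as well, and those of others hardly did. The mesothelium and epicardium markers (*tcf21*, *tbx18*, *wt1a*, *wt1b*) summed to 66.8 and 65.6 CPM in *prdm1a*-/- libraries, against 68.5 and 71.3 CPM in WT libraries. Of these 4 genes, 2 were called higher in replicate 2. The 6 cartilage markers (*col2a1a*, *sox9a*, *matn1*, *acana*, *col9a1a*, *col11a2*) summed to 20317 and 624 CPM in *prdm1a*-/- replicates 1 and 2, against 26752 and 1301 CPM in WT replicates 1 and 2. In replicate 2, 3 were called lower and 1, *sox9a*, higher. *col2a1a* alone gave 16294 CPM of the sum in *prdm1a*-/- replicate 1. There *matn1* had 0 counts, with 24 counts in *prdm1a*-/- replicate 2 and 100 and 32 counts in WT replicates 1 and 2. The 5 skeletal muscle markers summed to 6308 and 1750 CPM in *prdm1a*-/- libraries, against 7291 and 874 CPM in WT libraries, with 5 of 5 called lower in replicate 2. The part of cartilage or muscle in the replicate differences of the retinoic acid genes was not tested, and the labels, which call the libraries biological replicates, do not say whether equal numbers shared a batch.

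Beyond the 10 genes, 31 other genes of retinoid handling were tested of 37 listed, and 0 were called for genotype by edgeR's quasi-likelihood test, with 4 at an unadjusted p under 0.05. The shares over all genes tested were 1.01% and 12.4%. DESeq2 and limma-voom with the block called 0 as well. The gene named here with the highest estimate was one of retinoid uptake. *stra6*, the cell surface receptor for retinol-binding protein, had 5.39 and 6.04 CPM in *prdm1a*-/- libraries, against 2.96 and 2.22 CPM in WT libraries. These groups did not overlap, and its log2 fold change was 1.15 with an interval from 0.31 to 1.98 (adjusted p = 0.235, edgeR). *rbp4*, which encodes the retinol-binding protein of blood, had 245 and 93.0 CPM in *prdm1a*-/- libraries, against 200 and 44.7 CPM in WT libraries. It was above WT within each replicate number, with a log2 fold change of 0.67 and an adjusted p of 0.139 by edgeR, which became 0.018 with no filter on low counts. The log2 ratios were 0.29 in replicate 1 and 1.06 in replicate 2. Its estimate was -0.40 on the log2 scale when *prdm1a*-/- replicate 1 was left out and genotype was the only term. That fit sets *prdm1a*-/- replicate 2 against both WT libraries. The replicate difference of *rbp4* (log2 fold change -1.78, replicate 2 over replicate 1) thus enters it, and it cannot show whether the genotype difference depends on the library left out.

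Of the other enzymes, *aldh8a1*, which can oxidise 9-cis retinaldehyde, had a log2 fold change of 0.85 (adjusted p = 0.408, edgeR), and *bco1*, which cleaves carotene to retinaldehyde, had -0.50 (adjusted p = 0.454, edgeR). The 6 retinoid X receptor genes all had estimates below 0, from -0.45 for *rxrab* to -0.04 for *rxrbb*, and none was called. Of the 6, 3 were below WT in both replicates, beside 5951 of 20007 genes tested. Over all genes, 9856 of 20007 estimates were below 0. *rxrba*, next after *rxrab* in unadjusted p, had -0.13. Among receptor cofactors, the coactivator gene *ncoa3* had 52.1 and 75.4 CPM in *prdm1a*-/- libraries, against 73.5 and 108 CPM in WT libraries. It was below WT by about the same step in both replicates, with log2 ratios of -0.50 and -0.51 and an adjusted p of 0.135 (edgeR). *nrip1a*, which encodes a corepressor, had a log2 fold change of -0.34 (adjusted p = 0.359, edgeR).

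**Figure D3:**
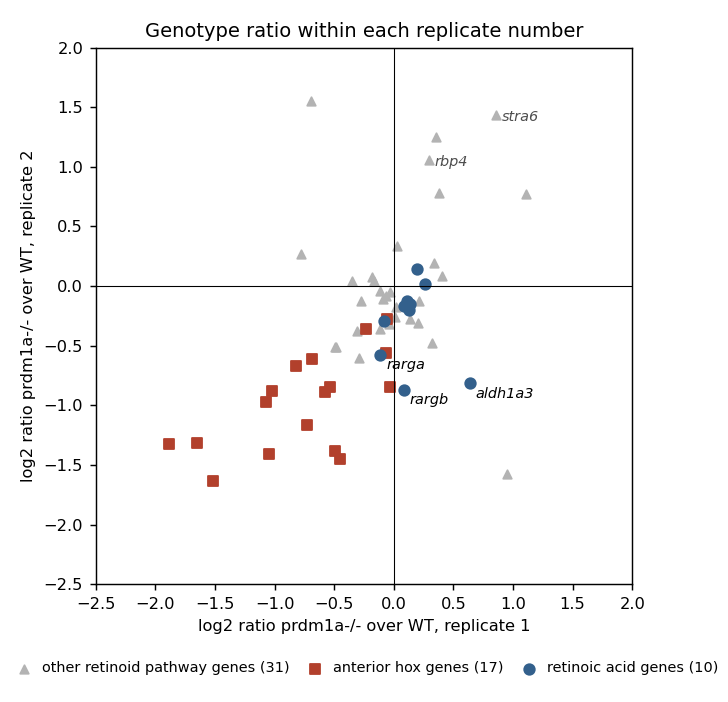
Each point is 1 gene, with the log2 ratio of *prdm1a*-/- to WT in replicate 1 on the horizontal axis and in replicate 2 on the vertical axis. Blue circles are the 10 retinoic acid genes, red squares 17 anterior *hox* genes and grey triangles 31 other retinoid genes. All 17 *hox* genes lie below 0 on both axes, while 2 of the 10 retinoic acid genes lie below 0 and 2 above 0 on both. Over all 20007 genes tested, which are not drawn, 5951 were below 0 and 5971 above 0 in both replicates.

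The *hox* genes of paralog groups 1 to 5, whose anterior members are known to respond to retinoic acid in vertebrate embryos, did differ between the genotypes in the same libraries. This list was chosen with earlier results of these data known. Of 17 tested, 7 fell in *prdm1a*-/- and 0 rose, beside 0.62% of all genes called lower. The median log2 fold change was -0.95, beside 0.0068 over all genes tested, and 17 of 17 estimates were below 0. Groups 4 and 5 held 6 of these calls among 8 genes, and groups 1 to 3 held 1 among 9. The median log2 fold change was -1.13 in groups 4 and 5 and -0.69 in groups 1 to 3. *hoxb5a* had 19.6 and 19.9 CPM in *prdm1a*-/- libraries, against 61.9 and 49.7 CPM in WT libraries, with a log2 fold change of -1.49 (adjusted p = 0.00253, edgeR). *hoxb4a* had 17.1 and 10.4 CPM in *prdm1a*-/- libraries, against 49.1 and 32.3 CPM in WT libraries, and fell by 1.58 on the log2 scale (adjusted p = 0.00253, edgeR). These mutant libraries lay far below both WT libraries. The log2 fold changes of the other called genes were -1.60 for *hoxc4a*, -1.24 for *hoxa5a*, -1.02 for *hoxa4a*, -0.95 for *hoxb5b* and -0.74 for *hoxb3a*. These calls rest on the comparison within replicate number. With genotype alone edgeR called 0 of 17, with 5 at an unadjusted p under 0.05, and DESeq2 called 1, *hoxb5a*. Leaving out any 1 library, also with genotype alone, gave 0 calls. The fits with genotype alone in edgeR and those without 1 library also called 0 of all genes tested, while the median *hox* log2 fold change was -0.86 with genotype alone and -0.94 to -0.79 without 1 library. Of the 5 neuron markers, *elavl3* was called lower in *prdm1a*-/-, the estimates of *elavl4* and *stmn2b* were below 0 and those of *snap25a* (0.19) and *gap43* (0.27) above 0, and none of these other 4 was called. The 5 summed to 123 and 87.0 CPM in *prdm1a*-/- libraries, against 133 and 168 CPM in WT libraries. The 6 pharyngeal arch and neural crest markers summed to 164 and 84.8 CPM in *prdm1a*-/- libraries, against 254 and 140 CPM in WT libraries, with *dlx2a*, *barx1* and *sox10* called lower. Their part in the *hox* values was not tested.

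**Figure D4:**
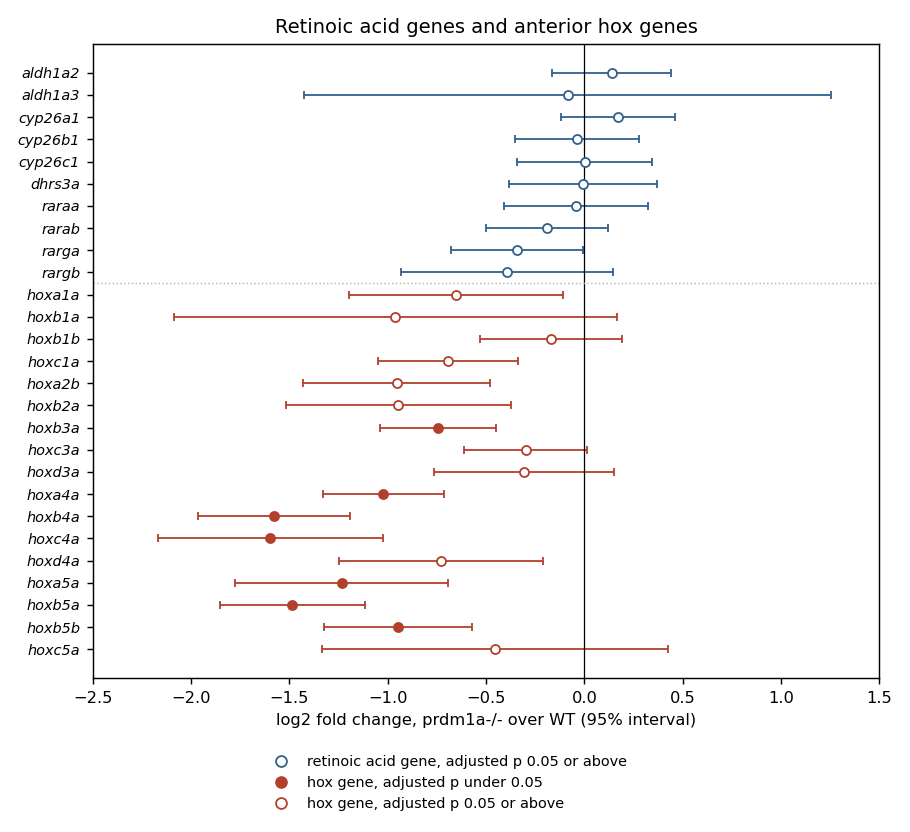
Points are log2 fold changes of *prdm1a*-/- over WT with 95% intervals, for the 10 retinoic acid genes (blue, above the dotted line) and 17 anterior *hox* genes in order of paralog group (red, below it). Filled points have an adjusted p under 0.05. The filled points run from -1.60 to -0.74, and the whole intervals of 8 of the 10 retinoic acid genes lie above -0.74. That value is the estimate of *hoxb3a*, whose own interval runs from -1.04 to -0.45.

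The 95% intervals of the retinoic acid genes can be set beside the *hox* falls, though they rest largely on the spread shared over genes. The smallest fall called among the *hox* genes was that of *hoxb3a*, at -0.74 on the log2 scale. This mark is itself an estimate, with an interval from -1.04 to -0.45. *hoxb3a* was called in 5 of 6 fits with the block. The lower ends of the intervals of *rarab* (-0.50) and *rarga* (-0.68) lie within that of *hoxb3a*. *Hox* genes that were not called had estimates as near to 0 as -0.17 (*hoxb1b*), and falls of that size are not covered by this mark. For 8 of the 10 retinoic acid genes the 95% interval lay above the *hoxb3a* value, and for *aldh1a3* and *rargb* it did not. For 9 of 10, all but *aldh1a3*, it lay within 1 log2 unit of 0 on both sides. These are separate intervals per gene, and the difference between the lists was not tested. The shares of all genes with such intervals were not computed, so whether these counts are particular to the retinoic acid genes is not known. Of 8 genes of fin induction tested, 1 was called, beside 1.01% of all genes tested. Their estimates went both ways, with 4 below 0 and 4 above 0. Among those above 0, *fgf10a* had 67.3 and 61.9 CPM in *prdm1a*-/- libraries, against 53.6 and 53.4 CPM in WT libraries. Its groups did not overlap, as for 26.2% of all genes, and its log2 fold change was 0.27 (adjusted p = 0.477, edgeR). *wnt2bb* had a log2 fold change of 0.68 (adjusted p = 0.314, edgeR). *hand2*, a transcription factor gene of the posterior fin bud, had 71.1 and 34.3 CPM in *prdm1a*-/- libraries, against 136 and 85.0 CPM in WT libraries, and fell by 1.12 on the log2 scale (adjusted p = 0.00525, edgeR). It was called in 6 of 6 fits with the block and in none with genotype alone. The part of arch, neural crest or neuron tissue in the *hand2* values was not tested. *tbx5a*, the gene that starts fin outgrowth and acts after retinoic acid in the fish, had 66.3 and 50.2 CPM in *prdm1a*-/- libraries, against 59.9 and 76.8 CPM in WT libraries. These groups overlapped, and the log2 fold change was -0.23 (adjusted p = 0.671, edgeR).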

How the data were processed

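The authors mapped trimmed paired reads to danRer11 by STAR (2.7.10b), and featureCounts gave their counts per gene. The sources used here name neither the gene models nor the featureCounts options. The deposited values used are whole-number counts per gene, without normalization, in 4 libraries. The authors' table also holds log2 levels of normalized counts, deposited beside the counts, and columns of their own DESeq2 comparison. None of these were used. The 6 CUT&RUN samples were not analysed here.

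Counts were fitted with edgeR (4.0.16, R 4.3.3) after TMM scaling, for the 20007 genes that passed filterByExpr (minimum count 10, minimum total 15), with replicate number and genotype as terms and a two-sided quasi-likelihood test. Adjusted p-values are Benjamini-Hochberg values over these genes. The standard error is the absolute log2 fold change divided by the square root of F, and 95% intervals use the t distribution with the fit's total degrees of freedom (median 10.0, of which 1 is residual and the rest come from the prior over genes). Ratios within a replicate number used a prior count of 0.5. A count of 0 allows up to 3 counts, which is 0.115 to 0.147 CPM, for counting error only. The members and lists were chosen with earlier results of these data known. *lratb* and *hoxa3a* were listed but matched no gene name in the table, and 2 further listed genes are not reported here.

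The block was used because the genes are compared within replicate number. The labels do not say that a number marks a shared batch. Deviations from the genotype means correlated between same-numbered libraries, with r = 0.66 over genes, and genes are not independent samples. On principal component 1, with 65.5% of the variance, libraries split by number, and on component 2, with 21.6%, by genotype. Alternatives were RLE size factors, DESeq2 (1.42.0), limma-voom (limma 3.58.1), no filter, at least 10 counts in every library, genotype alone in edgeR and in DESeq2, and leaving out each library in turn with genotype alone, which together with the comparison itself made 12 fits. All 10 members were named. Among the retinoid, *hox* and fin induction lists, each gene called was named, and in each role of the retinoid list the 2 genes with the smallest unadjusted p. Named outside this rule, after their values were seen, were *rxrbb*, *hoxb1b*, *tbx5a*, *fgf10a*, *wnt2bb* and *prdm1a*. So were the retina, cartilage, neuron, arch and neural crest markers given singly. The fitting step was tested on simulated counts, in edgeR with and without the block and in DESeq2 and limma-voom with the block. The other steps were not tested in this way.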

Additional observations from a re-analysis of the deposited data

How the results depend on the processing

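In the 6 fits with the replicate block and in DESeq2 with genotype alone, 0 of the 10 retinoic acid genes were called for genotype. The other 5 fits called 0 of all genes and bear on no call. The 5 retinoic acid genes called for replicate number were called in all 6 fits with the replicate block. The block decided most other calls. With the replicate block 203 of all genes were called, 128 with RLE size factors, 434 with limma-voom and 636 with no filter on low counts. With no replicate block the count was 0 in edgeR (376 at an unadjusted p under 0.05) and 50 in DESeq2, and leaving out 1 library gave 0 in each of 4 fits. The anterior *hox* calls, 7 with the block, were 4 with RLE size factors, where *hoxb3a* (adjusted p = 0.0612), *hoxa5a* (0.0869) and *hoxb5b* (0.0615) missed the threshold in edgeR, and *hoxa5a* also missed it in DESeq2 with the block (0.0631). They were 0 in edgeR and 1 in DESeq2 with no replicate block, and 0 in each fit that left out 1 library. The other retinoid genes had 1 call, *rbp4*, with no filter (log2 fold change 0.67).

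The log2 fold change of *cyp26c1* turned to -0.0029 when at least 10 counts in every library were required. Leaving out 1 library also leaves the replicate numbers unbalanced between the genotypes, so that replicate differences enter the genotype estimate. It then ran from -1.68 to 1.63 for *cyp26c1*, -0.37 to 0.73 for *aldh1a2*, -0.60 to 0.38 for *aldh1a3*, -0.64 to 0.67 for *cyp26b1*, -0.50 to 0.58 for *dhrs3a*, -0.41 to 0.39 for *raraa*, -0.31 to 1.71 for *aldh8a1*, -0.40 to 1.92 for *rbp4*, -0.51 to 0.31 for *rxrba* and -1.06 to 0.40 for *nrip1a*. *cyp26a1* stayed above 0 (0.07 to 0.27), and *rarab* (-0.35 to -0.04), *rarga* (-0.59 to -0.11) and *rargb* (-0.70 to -0.12) stayed below 0 in these 4 fits. A kept sign here does not show that a gene differed alike in both replicates. For *rargb* the fit without *prdm1a*-/- replicate 2 gave -0.12, although its log2 ratio in replicate 1 was 0.09.

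With 2 pools per genotype and 1 residual degree of freedom, intervals rest largely on the spread shared over genes. Among counts from 1 to 20, 79.2% to 82.4% per library were even numbers. Whether both reads of a pair were counted was not tested. Where they were, counts exceed the number of fragments, and the limit of 3 counts and the counting error are understated. The genes with the fewest counts, *aldh1a3* among them, are the least precise.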
